A study of Homo sapiens with 79 samples.

Results

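The eye field regulators RAX, SIX3, SIX6, PAX6 and LHX2 were followed in retinal organoids, which are layered aggregates grown from pluripotent cells that form retinal neurons, glia and pigment epithelium. The 5 genes were taken by their symbols from the 24414 genes of the deposited count table, and all 5 had reads on each of the 4 chips sequenced. Single cells came from organoids of the human embryonic stem cell line H9 with a CRX-GFP reporter, at day 60 (1 chip, 19 columns, 578 cells), day 90 (1 chip, 20 columns, 661 cells) and day 200 (chip a with 20 columns and 356 cells, chip b with 20 columns and 381 cells). Every group shared this line and reporter, an early exposure to the ROCK inhibitor Y27632, and later foetal calf serum, T3, taurine and retinoic acid. The model is therefore 1 line in 1 medium, and how many organoids entered a chip was not given in the sources used here. The question was which of the 1976 cells kept these regulators and which lost them, by time and by cell group.

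All 5 genes encode transcription factors of the eye field, the region of the anterior neural plate from which the eyes form. RAX is a paired-like homeodomain protein needed for the optic vesicle. SIX3 and SIX6 are homeodomain proteins of the sine oculis family, SIX3 acting in the forebrain and eye and SIX6 more narrowly in the eye and pituitary. PAX6 carries a paired domain and a homeodomain, and is needed from the optic vesicle to the amacrine and ganglion cells of the mature retina. LHX2 is a LIM homeodomain protein needed for the step from eye field to optic vesicle and later for Müller glia. Retinal progenitors hold these factors together, and differentiating cell types keep different subsets of them.

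The sequences below show how close each regulator is to a relative in the same genome, because reads were counted per gene without molecular identifiers. In GRCh38 with GENCODE 44 genes, RAX lies at chr18:59267035-59274086 on the minus strand, SIX3 at chr2:44941702-44946071 on the plus strand, SIX6 at chr14:60509146-60512850 on the plus strand, PAX6 at chr11:31784779-31817961 on the minus strand and LHX2 at chr9:124001670-124033301 on the plus strand. The most similar stretch of 90 bases within the exons of each pair is printed 5′ to 3′ along the gene, with bases that the pair shares in capitals.
SIX3, chr2:44942555-44942644, plus strand: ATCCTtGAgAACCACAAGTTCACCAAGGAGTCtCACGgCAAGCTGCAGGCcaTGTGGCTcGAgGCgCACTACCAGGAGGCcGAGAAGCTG
SIX6, chr14:60509615-60509704, plus strand: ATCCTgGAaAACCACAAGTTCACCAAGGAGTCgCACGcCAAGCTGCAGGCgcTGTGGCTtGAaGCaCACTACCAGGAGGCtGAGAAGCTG
RAX, chr18:59272402-59272491, minus strand: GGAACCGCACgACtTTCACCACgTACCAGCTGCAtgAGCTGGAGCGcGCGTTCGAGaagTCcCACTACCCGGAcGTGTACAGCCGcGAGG
RAX2, chr19:3771568-3771657, minus strand: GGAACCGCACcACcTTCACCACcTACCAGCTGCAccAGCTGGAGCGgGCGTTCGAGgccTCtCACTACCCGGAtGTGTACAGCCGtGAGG
LHX2, chr9:124015207-124015296, plus strand: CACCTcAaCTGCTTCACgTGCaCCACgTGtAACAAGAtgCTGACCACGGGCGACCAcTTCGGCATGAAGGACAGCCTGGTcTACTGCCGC
LHX9, chr1:197921389-197921478, plus strand: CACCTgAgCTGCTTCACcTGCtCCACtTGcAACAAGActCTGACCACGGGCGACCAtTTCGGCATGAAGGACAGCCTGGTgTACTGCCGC

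SIX3 and SIX6 shared 80 of these 90 bases, RAX and RAX2 78, and LHX2 and LHX9 80. The longest unbroken run shared by the transcripts was 29 bases for SIX3 and SIX6, 20 bases for RAX and RAX2, 33 bases for LHX2 and LHX9 and 15 bases for PAX6 and PAX2, in each case shorter than the 75-base reads. Other overlaps in exons were with genes on the opposite strand, and the library kit does not mark strand. PAX6 shared 5241 exon bases with ELP4 and 191 with the non-coding RNA PAUPAR, and SIX3 shared 207 with SIX3-AS1, so reads in those bases cannot be told apart. LHX2 shared part of an exon with a non-coding RNA on the opposite strand that is not among the genes used here. SIX6 lies within the bounds of C14orf39, with 0 shared exon bases.

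Cells held a median of 164352 reads at day 60, 160343 at day 90, 251929 then 212201 on chips a and b. Chip a stood apart from the other chips. When each cell was thinned to 50000 reads, the median number of genes with a read was 1669.5 on chip a against 3120.5 at day 60, 2886 at day 90 and 2777 on chip b, and 22 of the 25 called doublets were on it. Values that rest on chip a are therefore given for chip b as well. The 40 cell barcodes each recur in several columns by the design of the chip, and no cell name occurred more than once. Days 60 and 90 have 1 chip each and the labels name no separate cultures for the columns of a chip, so no test between days was made. Intervals in brackets are exact 95% Poisson intervals for levels and exact binomial (Clopper-Pearson) intervals for shares, and cover counting error only.

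All 5 regulators were present at each time, and none of them doubled or fell to a level below 50% of day 60 in the cells as a whole. Levels are summed reads of a gene over the summed reads of all genes, scaled to a fixed total (CPM), and they are compared between samples for 1 gene, not between genes. A gene was called higher or lower at day 200 where the pooled level and that of each day 200 chip lay at least 2-fold from day 60 in the same direction. By this rule 6.82% of 8617 genes were called higher and 3.23% lower, and 0 of the 5 regulators were called. Between day 60 and day 90, where the same fold called 9.12% of 8529 genes higher and 6.32% lower, 0 of 5 were called.

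RAX was at 149.7 CPM (147 to 152) at day 60, 175 CPM at day 90, 252 then 164 CPM on chips a and b. Its columns ran from 90.1 over a median of 138 to 257 CPM at day 60, from 52.4 over 158 to 288 CPM at day 90, from 68.1 over 258 to 435 CPM on chip a, and from 86.8 over 142 to 341 CPM on chip b. Chip a was highest, and the column ranges of all 4 chips overlapped.

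SIX3 was at 320.1 CPM (317 to 324) at day 60, 372 CPM at day 90, 399 then 398 CPM on chips a and b, so that the 2 chips of day 200 lay closer to each other than to the earlier days. Its columns ran from 169 over a median of 319 to 485 CPM at day 60, and from 235 over 378 to 545 CPM on chip b. SIX6 was at 161 CPM (158 to 163) at day 60, 112 CPM at day 90, 271 then 161 CPM on chips a and b. Its columns ran from 79.2 over 157 to 232 CPM at day 60, from 51.5 over 101 to 271 CPM at day 90, from 50.1 over 281 to 538 CPM on chip a, and from 41 over 171 to 295 CPM on chip b. The SIX6 levels of day 60 and chip b did not differ beyond their counting intervals, and the 2 chips of day 200 differed by more than day 60 and chip b did. Set against each other, chip a over chip b, 4.24% of 8627 genes were at least 2-fold higher and 4.72% lower, and 0 of the 5 regulators were.

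PAX6 was at 467 CPM (463 to 472) at day 60, 389 CPM at day 90, 431 then 405 CPM on chips a and b. Its columns ran from 261 over 498 to 649 CPM at day 60 and from 120 over 365 to 685 CPM on chip b, and 1 column of chip a reached 1170 CPM. LHX2 was at 117 CPM (115 to 119) at day 60, 164 CPM at day 90, 113 then 141 CPM on chips a and b. Its columns ran from 53 over 111 to 183 CPM at day 60, from 86.3 over 179 to 256 CPM at day 90, from 3.71 over 89.2 to 342 CPM on chip a, and from 72.1 over 141 to 280.1 CPM on chip b. Column ranges of all 4 chips overlapped for every regulator. Pooled over both chips, day 200 over day 60 on the log2 scale was 0.48 for RAX, 0.32 for SIX3, 0.44 for SIX6, -0.16 for PAX6 and 0.12 for LHX2, beside a median of 0.07 over all genes tested.

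**Figure D1:**
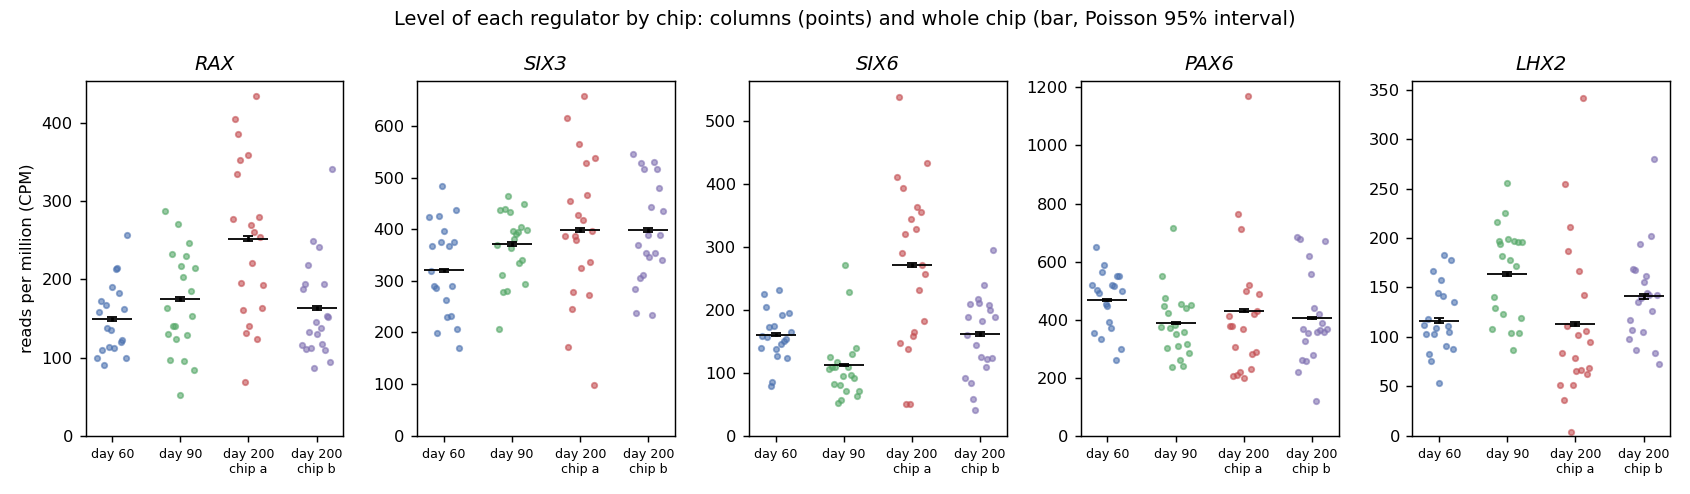
Level of each regulator (CPM, vertical axis) on each chip, with points for chip columns and a bar for the chip's summed reads with its exact 95% Poisson interval. The columns of all 4 chips overlap for every gene, with RAX at 149.7 CPM on the day 60 chip and 252 CPM on chip a.

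Within a chip the regulators were unevenly spread over cells. The tenth of cells with most reads held between 39.3% (PAX6, day 60) and 69.5% (LHX2, chip a) of a regulator's reads. At 50000 reads a cell, PAX6 had a read in 79.6% of cells (76.1 to 82.8) at day 60, 73.9% at day 90, 56.7% then 71.4% on chips a and b. SIX3 had a read in 76.5%, 78.9%, 61.5% and 78.2% of cells in the same order. The other regulators were found in fewer cells. RAX had a read in 49.3%, 55.1%, 41.3% and 47.8% of cells, SIX6 in 50.3%, 47.5%, 36.2% and 45.9%, and LHX2 in 50.3%, 54.2%, 35.4% and 47.5%. Chip a had the lowest share for every regulator although its RAX and SIX6 levels were the highest. It also had the fewest genes per cell, and the part of that in these shares was not tested. Without thinning the shares were higher, for example 55.9% of day 60 cells and 58% of chip b cells for RAX.

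Counted together, 64.9% of day 60 cells (60.8 to 68.8) had reads of at least 3 of the 5 regulators, against 70.2% at day 90, 44.9% then 60.4% on chips a and b. The order of the chips depended on the threshold. With at least 5 reads asked for, the shares were 44.5% at day 60, 38.2% at day 90, 27.2% then 44.9% on chips a and b. Day 90 was then below day 60 and chip b. Cells with none of the 5 made up 4.5% at day 60, 2.29% at day 90, 7.87% then 5.51% on chips a and b. All 5 were found in 18.9% of day 60 cells (15.7 to 22.3), 13.0% of day 90 cells, 2.53% of chip a cells and 12.9% of chip b cells. Over the 1970 cells deep enough to be thinned, all 5 together was the most frequent combination with 252 cells, and SIX3 with PAX6 alone followed with 159 cells.

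To ask which cells kept the regulators, cells were grouped by their other genes, with 0 of the 5 regulators among the genes used. The 12 clusters were named where at least 3 of 10 markers of a cell type led them, and these markers had been chosen by the study on the same cells. A larger Müller glia-like cluster (447 cells, led by TF, GPX3 and WIF1) and a smaller one (104 cells, led by IGFBP6 and ABCB1) carried markers of the main glia of the retina. Mitotic-like cells (104, MKI67, TOP2A), cone-like cells (241, ARR3, PDE6H), rod-like cells (62, GNAT1, NRL), ganglion cell-like cells (RGC-like, 150, NEFL, STMN2), retinal pigment epithelium-like cells (RPE-like, 96, PMEL, BEST1) and extracellular matrix-like cells (ECM-like, 85, COL3A1, MGP) were named likewise. HOXB5, a gene of the hindbrain and spinal cord, was also among the genes that led the RGC-like cells. Cells with markers of the study's numbered clusters are called cluster 7-like (73, AOC2, CPAMD8) and cluster 8-like (98, GPC3, S100B). A cluster of 202 cells passed the rod marker rule but was led by VSX1, a gene known from bipolar cells, and by LHX4, and is called VSX1-led. The last 314 cells, led by GDF15 and ANGPTL4, matched no list and stay unnamed.

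Over all chips the regulators were found together most often in mitotic-like and Müller glia-like cells and in cluster 7-like cells, and least often in ECM-like and RGC-like cells. At least 3 of the 5 were found in 93.3% of mitotic-like cells (86.6 to 97.3), 85.2% of larger Müller glia-like cells (81.6 to 88.4), 83.7% of smaller Müller glia-like cells and 83.6% of cluster 7-like cells. Next came VSX1-led cells with 64.4%, cone-like cells with 56.2%, the unnamed cells with 51%, RPE-like cells with 49%, cluster 8-like cells with 46.9% and rod-like cells with 40.3%. RGC-like cells reached 26.7% (19.8 to 34.5) and ECM-like cells 21.7% (13.4 to 32.1). The intervals of the first 4 groups overlapped, as did those of the last pair. These shares are pooled over chips that hold the groups in unequal numbers, and the order within chips differed. At day 60 the share was 92.4% of mitotic-like, 94.3% of larger Müller glia-like and 100% of the 19 cluster 7-like cells. At day 90 it was 64% of rod-like and 51.3% of RPE-like cells.

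Of the 90 cells with none of the 5 regulators, 25 were ECM-like, 18 unnamed, 17 RGC-like, 8 cone-like, 8 cluster 8-like, 7 rod-like, 3 VSX1-led, 3 RPE-like and 1 larger Müller glia-like. None was mitotic-like (0 of 104 cells, which allows a share of up to 3.48%), smaller Müller glia-like (0 of 104) or cluster 7-like (0 of 73, which allows up to 4.93%). Within the larger Müller glia-like cluster the share with at least 3 was 94.3% at day 60, 89.8% at day 90, 62.6% then 89.9% on chips a and b, and its cells on chip a had a median of 1671 genes at 50000 reads against 2996 at day 60. The part of chip a's lower gene number in its lower share was not tested.

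**Figure D2:**
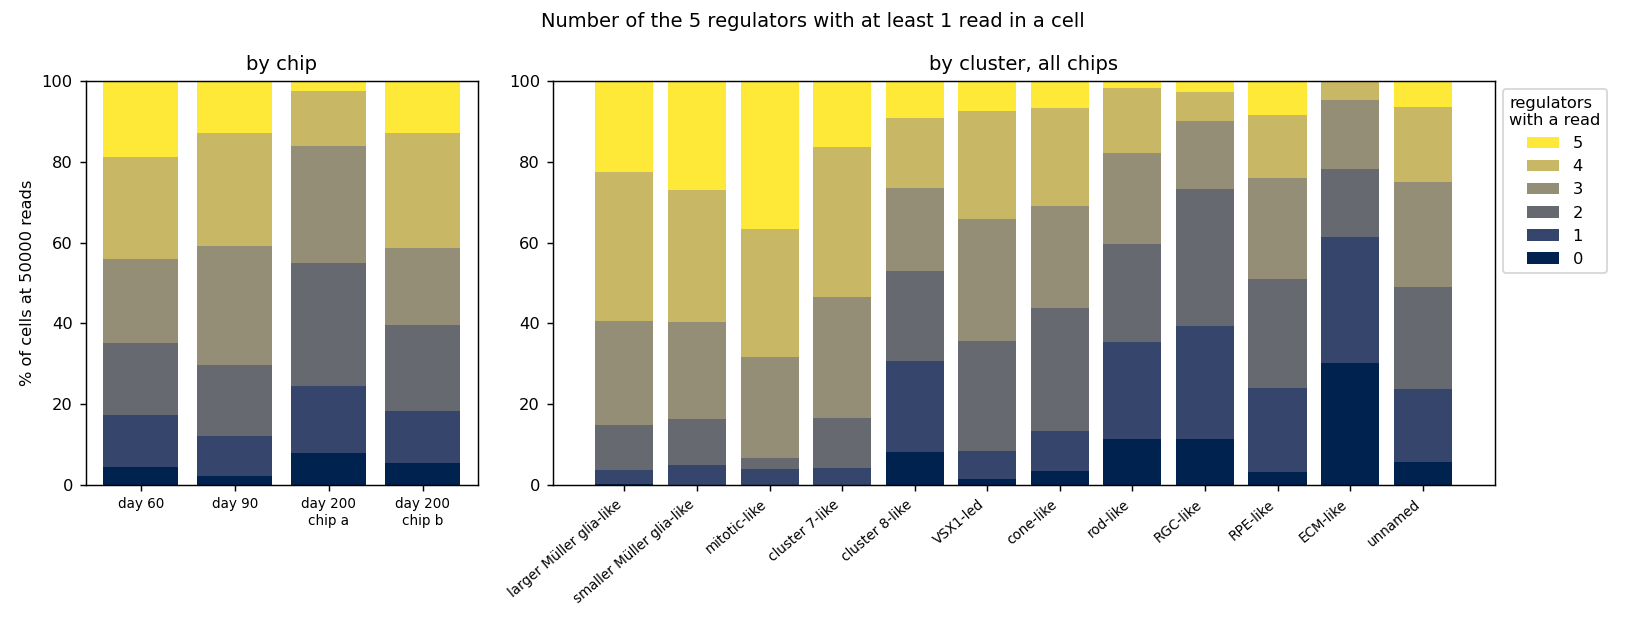
Share of cells (%, stacked bars) with reads of 0 to 5 of the regulators at 50000 reads a cell, by chip and by cluster. Mitotic-like and Müller glia-like cells hold mostly 3 or more regulators, while 30.1% of ECM-like cells hold none.

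ECM-like cells, whose collagen and matrix genes mark fibroblast-like cells, were taken as a measure of background on the assumption, which was not tested, that they lack the eye field factors. Shares were taken in cells thinned to 50000 reads. A read was found in 14.5% of ECM-like cells for RAX (7.7 to 23.9) and 38.6% for SIX3. The ECM-like shares were 19.3% for SIX6, 43.4% for PAX6 and 19.3% for LHX2. In the larger Müller glia-like cluster the shares were 63.7%, 86.8%, 56.7%, 83.4% and 72.9% in the same gene order. Before thinning, the median depth was 199165 reads in the ECM-like and 169870 reads in the larger Müller glia-like cluster. With at least 5 reads asked for, the ECM-like shares were 4.82%, 18.1%, 9.64%, 20.5% and 4.82%. SIX6 in RPE-like cells lay below the ECM-like share at both thresholds (18.8% and 5.21%) and is read as background. LHX2 in RGC-like cells lay below it at 1 read (17.3%) and above it at 5 reads (11.3%), so that its presence there could not be told from background by the 1-read share.

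**Figure D3:**
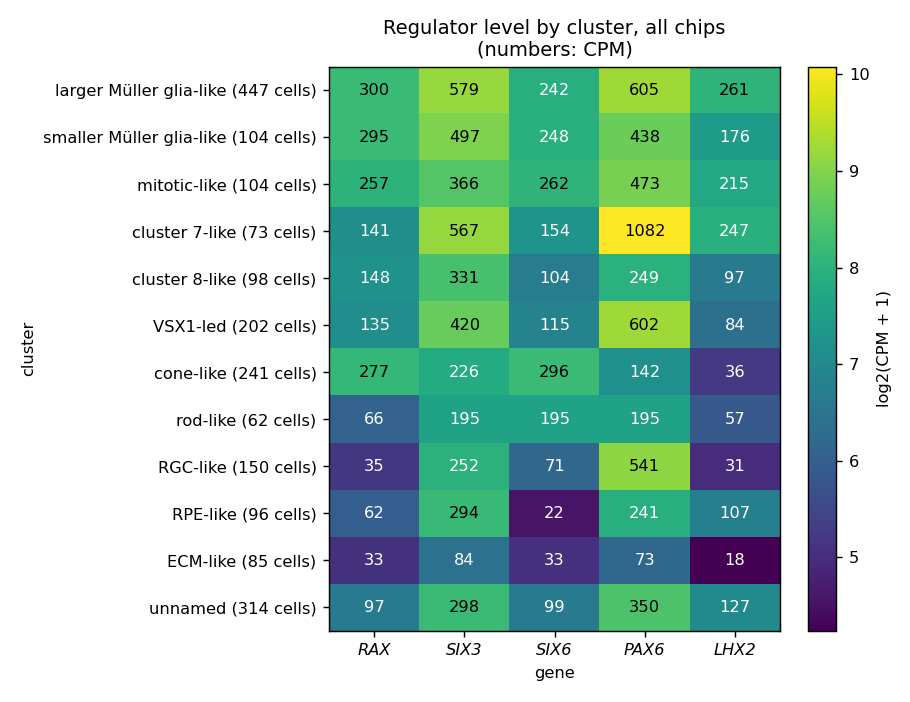
Level of each regulator over all chips in the 12 clusters, with colour for log2(CPM + 1) and the CPM printed in each cell of the map. The ECM-like row is lowest or near lowest for every gene, and LHX2 falls from 261 CPM in the larger Müller glia-like cluster to 35.9 CPM in cone-like cells.

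Further comparisons set each cluster against the larger Müller glia-like cluster within chips, and called a gene where the pooled level and each chip with at least 10 cells of both lay at least 2-fold apart in the same direction. These are descriptions of 1 chip per early day, with no test. No regulator was called higher in any of the 11 clusters. In mitotic-like cells 0 of 5 were called, where 4.18% of genes were lower and 5.03% higher, and in smaller Müller glia-like cells 0 of 5, where 0.718% were lower and 0.395% higher. In cluster 7-like cells 0 of 5 were called, where 3.67% were lower and 1.48% higher. PAX6 was at 1082 CPM there over all chips, with 785 CPM at day 60, 1137 CPM at day 90, 1281 then 1234 CPM on chips a and b, and its log2 ratio to the larger Müller glia-like cluster of 0.70, taken without chip a, stayed under 2-fold. Chip a was left out because it held 9 cluster 7-like cells, and there PAX6 was at 1281 CPM against 523 CPM.

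Cone-like cells kept RAX and SIX6 and held less PAX6 and LHX2 than larger Müller glia-like cells. RAX was at 201 CPM at day 60, 297 CPM at day 90, 315 then 234 CPM on chips a and b in cone-like cells, against 261, 275, 397 and 232 CPM in larger Müller glia-like cells. SIX6 was at 221, 210.1, 431 and 304 CPM in cone-like cells, against 275, 136, 323 and 199 CPM. The 2 clusters changed places from chip to chip for both genes, and the pooled log2 ratios were -0.11 for RAX and 0.29 for SIX6.

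PAX6 was at 251 CPM at day 60, 114 CPM at day 90, 134 then 91.4 CPM on chips a and b in cone-like cells, against 633, 626, 523 and 666 CPM in larger Müller glia-like cells. LHX2 was at 46.3, 63.3, 11.7 and 4.65 CPM in cone-like cells, against 230.1, 391, 186 and 268 CPM. PAX6 and LHX2 were lower in cone-like cells on every chip, with pooled log2 ratios of -2.08 and -2.83, and these 2 of 5 were called lower where 5.34% of genes were and 3.98% were higher. SIX3 had a log2 ratio of -1.35 and was not called, because day 60 lay within 2-fold. Cone-like cells made up 12.2% of cells and held 20.6% of all RAX reads and 23.4% of SIX6 reads, but 4.61% of PAX6 reads and 3.66% of LHX2 reads. Their most frequent combination was RAX, SIX3, SIX6 and PAX6 without LHX2, in 33 of 240 cells. PAX6 was thus lower but not absent. RAX and PAX6 both had a read in 27 of 47 cone-like cells at day 60, 40 of 102 at day 90, 12 of 61 on chip a and 8 of 30 on chip b.

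Rod-like cells, which were 25 at day 90, 26 on chip a, 11 on chip b and 0 at day 60, had 3 of 5 regulators called lower than the larger Müller glia-like cluster, where 7.58% of genes were and 4.26% were higher. The log2 ratios were -1.62 for SIX3, -1.61 for PAX6 and -2.22 for LHX2. RAX was at 87.4 CPM at day 90, 26.7 then 151 CPM on chips a and b in these cells, and SIX6 at 93.9, 279.6 and 108 CPM. Against cone-like cells 0 of 5 were called, where 1.65% of genes were called higher and 4.28% lower, and the RAX log2 ratio of -2.14 came from -3.51 on the lowest chip and -0.63 on the highest.

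VSX1-led cells had 0 of 5 regulators called, where 2.62% of genes were lower and 1.85% higher. PAX6 in them was at 804 CPM at day 60, 394 CPM at day 90, 772 then 381 CPM on chips a and b, on either side of the larger Müller glia-like cluster. LHX2 was at 44.2, 84.5, 76 and 144 CPM, lower than in the larger Müller glia-like cluster on every chip but within 2-fold on chip b.

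RGC-like cells held PAX6 and little RAX and LHX2. Most RGC-like cells of day 60 carried reads of HOX genes, which mark the hindbrain and spinal cord and not the retina. The values are therefore not those of retinal ganglion cells alone, and RAX and LHX2 are not given apart for HOX-free cells. PAX6 was at 285 CPM at day 60, 1054 CPM at day 90, 675 then 674 CPM on chips a and b in RGC-like cells. RAX was at 40.6, 23, 0.92 and 55 CPM and LHX2 at 34.9, 52.6, 11.2 and 5.9 CPM in the same order, beside 17.9 CPM for LHX2 in ECM-like cells over all chips. RAX and LHX2 both had a log2 ratio of -3.05 to larger Müller glia-like cells, and these 2 of 5 were called lower where 5.41% of genes were and 3.38% were higher. The PAX6 log2 ratio was -0.16, with -1.15 on the lowest chip and 0.75 on the highest. SIX6 was at 37.3, 138, 2.76 and 147 CPM, and fell on either side of the 2-fold line. The most frequent combination in RGC-like cells was SIX3 with PAX6, in 32 of 150 cells.

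**Figure D4:**
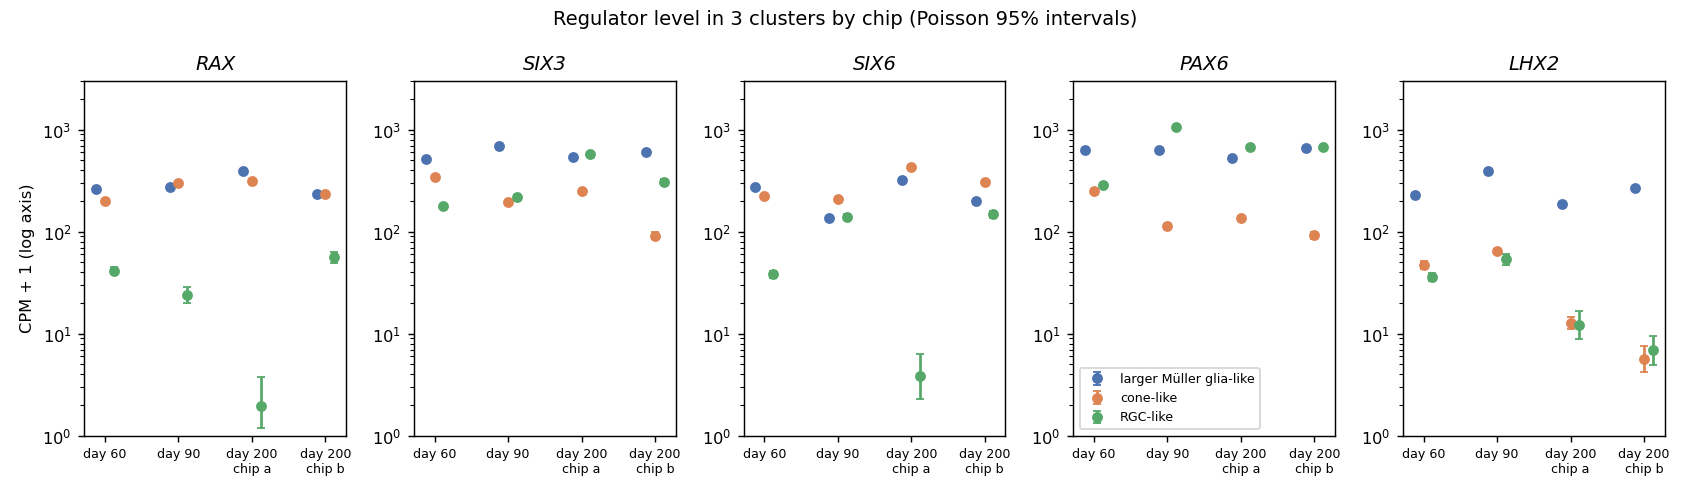
Level of each regulator (CPM + 1, log axis) in larger Müller glia-like, cone-like and RGC-like cells on the 4 chips, with exact 95% Poisson intervals. Cone-like and larger Müller glia-like points lie close together for RAX and SIX6 and far apart for LHX2, while RGC-like points are at 1054 CPM for PAX6 at day 90 and at 0.92 CPM for RAX on chip a.

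RPE-like cells could be compared on the day 90 chip alone, which held 78 of the 96. There all 5 regulators were called lower than in larger Müller glia-like cells, where 16.1% of genes were and 16.7% were higher. RAX was at 54.7 against 275 CPM, SIX3 at 297 against 685 CPM, SIX6 at 24.9 against 136 CPM, PAX6 at 227 against 626 CPM and LHX2 at 122 against 391 CPM. Their most frequent combination was SIX3, PAX6 and LHX2 in 14 of 96 cells.

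ECM-like cells also had all 5 called lower, where 7.58% of genes were and 5.37% were higher, with log2 ratios of -2.77 for RAX, -2.66 for SIX3, -2.48 for SIX6, -2.98 for PAX6 and -3.84 for LHX2. In cluster 8-like cells 2 of 5 were called lower (PAX6 -1.39, LHX2 -1.49), where 2.11% of genes were and 3.53% were higher. In the unnamed cells 2 of 5 were called lower (RAX -1.61, SIX6 -1.28), where 1.93% of genes were and 0.945% were higher.

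Next, each cluster was followed over time. In the larger Müller glia-like cluster 0 of 5 regulators were called at day 200 over day 60, where 8.59% of 8637 genes were called higher and 6.18% lower. The log2 changes there were 0.34 for RAX, 0.14 for SIX3, -0.02 for SIX6, -0.12 for PAX6 and -0.07 for LHX2, and the signs of RAX, SIX6, PAX6 and LHX2 differed between chips a and b. With the smaller cluster added, 0 of 5 were called, where 8.3% of genes were higher and 5.07% lower.

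In cone-like cells LHX2 was called lower at day 200, from 46.3 CPM (42.2 to 50.7) at day 60 to 11.7 then 4.65 CPM on chips a and b, where 10.2% of 8488 genes were called lower and 10.8% higher. The chip b value rests on 34 reads in 30 cells. A read of LHX2 was found in 38.3% of cone-like cells at day 60 (24.5 to 53.6) and in 22% at day 200 (14.0 to 31.9), and these intervals overlapped. The day 200 share lay near the 19.3% of ECM-like cells. PAX6 had a log2 change of -1.04 and was not called, because chip a lay within 2-fold. SIX3 was at 343 CPM at day 60, 250.3 then 90.2 CPM on chips a and b. RAX had a log2 change of 0.53 and SIX6 of 0.83, both under 2-fold.

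In RGC-like cells PAX6 was called higher at day 200, from 285 CPM at day 60 to 675 then 674 CPM on chips a and b, where 6.51% of 8697 genes were called higher. LHX2 was called lower, from 34.9 CPM to 11.2 and 5.9 CPM, where 13% were called lower, on 36 reads in 11 cells of chip a and 29 reads in 20 cells of chip b. These day 200 levels lie below the 17.9 CPM of ECM-like cells, and the 1-read share of LHX2 in RGC-like cells was at background. The RGC-like cluster changed its make-up at the same time. Reads of 3 or more HOX genes were found in 85 of its 89 cells at day 60. These genes mark the hindbrain and spinal cord and not the retina. At day 200 the number was 12 of 31 cells. PAX6 was at 219.6 CPM in the HOX-positive RGC-like cells of day 60, 209 CPM in the 10 of day 90 and 230.1 CPM in the 12 of day 200. In RGC-like cells with no HOX read it was at 1246 CPM in the 15 cells of day 90 and 1039.5 CPM in the 13 of day 200. Among the HOX-positive RGC-like cells of day 200, the 11 of chip b were at 252 CPM (235 to 270.0), beside 212 to 228 CPM for the interval of day 60. These intervals leave out the spread between cells and chips, so they do not settle a difference between days. The only such cell of chip a was at 3.23 CPM. The part of HOX-positive cells in the rise of the whole group was not tested.

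In VSX1-led cells 0 of 5 regulators were called over time, where 11.1% of genes were called higher and 8.87% lower, with LHX2 at a log2 change of 1.26. In the unnamed cells RAX was called higher, from 32.3 CPM at day 60 to 127 then 113 CPM on chips a and b, and so was SIX3, from 166 CPM to 391 and 344 CPM, where 13% of genes were called higher and 5.4% lower.

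HOX genes are silent in the eye and forebrain, so cells with and without HOX reads were compared outside the RGC-like cells as well. At day 60, 254 cells carried reads of 3 or more of the 28 HOX genes counted and 152 carried none, at median depths of 167548 and 164594 reads. At least 3 regulators were found in 45.7% of the HOX-positive cells and in 80.9% of the HOX-free cells. RAX was found in 35.4% of HOX-positive cells (29.6 to 41.7) against 61.8% of HOX-free cells (53.6 to 69.6), SIX6 in 34.6% against 63.8% and LHX2 in 39.8% against 63.2%. SIX3 was found in 66.5% against 82.9% and PAX6 in 72.4% against 82.9%. All 5 shares were lower in the HOX-positive cells, and for RAX, SIX3, SIX6 and LHX2 the intervals did not overlap. Without thinning, the HOX classes were also set from all reads, so the cells compared were not the same. The RAX difference was then -9.86 percentage points in place of -26.4, and that of SIX6 -19.2 in place of -29.2. For LHX2 it was -13.2 in place of -23.4 and for PAX6 -2.12 in place of -10.5. The parts of depth and of the changed classes were not tested.

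The cell groups differed between these classes, since most RGC-like and cluster 8-like cells of day 60 were HOX-positive. With both groups left out, RAX was found in 44% of 141 HOX-positive cells against 62.7% of 150 HOX-free cells, SIX6 in 46.8% against 64% and LHX2 in 54.6% against 64%, while PAX6 was at 81.6% against 82.7%. SIX3 was at 73% against 82.7%. The counting intervals, again no test, did not overlap for RAX and SIX6 and overlapped for SIX3, PAX6 and LHX2. Within the larger Müller glia-like cluster of day 60, RAX was found in 64.6% of HOX-positive and 70% of HOX-free cells, SIX6 in 54.2% and 75%, and LHX2 in 83.3% and 85%, and these intervals overlapped for each gene. By level, RAX was at 184 CPM in 48 HOX-positive cells and 337 CPM in 40 HOX-free cells, SIX6 at 125 and 338 CPM, and LHX2 at 219.5 and 248 CPM. At day 200, 3 or more regulators were found in 26.7% of 15 HOX-positive and 45.9% of 290 HOX-free cells of chip a, and in 42.9% of 84 HOX-positive and 65% of 203 HOX-free cells of chip b. Pooled over both chips, which give unequal numbers of cells to the 2 classes, the shares were 40.4% and 53.8%.

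**Figure D5:**
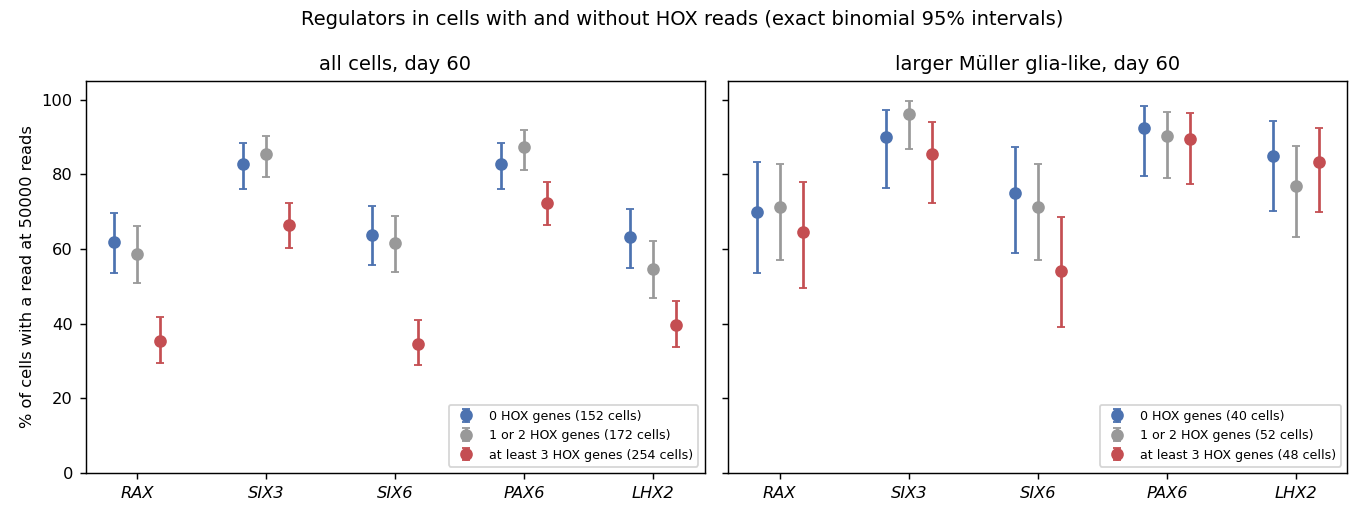
Share of day 60 cells (%, vertical axis) with a read of each regulator at 50000 reads, in cells with at least 3, 1 or 2, and 0 HOX genes, over all cells and within the larger Müller glia-like cluster, with exact 95% binomial intervals. RAX is found in 35.4% of all HOX-positive cells and 61.8% of all HOX-free cells.

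Pairs of regulators shared cells slightly more often than their separate shares give over all cells, and with ratios nearer 1 within the larger Müller glia-like cluster outside chip a. For RAX and SIX6 at day 60, 191 cells had both, 94 RAX alone, 100 SIX6 alone and 193 neither, which is 1.33 times the number from the separate shares. That was the highest ratio among the 10 pairs on any chip over all cells, the lowest being 0.95 on chip a. Within the larger Müller glia-like cluster the RAX and SIX6 ratio was 1.07 at day 60, 1.01 at day 90, 0.96 then 1.01 on chips a and b. On chip a the 10 pairs ran from 0.88 for PAX6 with LHX2 to 1.29 for SIX6 with LHX2. SIX3 and PAX6 were found in so many cells of this cluster that their ratios could rise little above 1. Across cells, which share a library and differ in depth, Pearson's r of log2(CPM + 1) ran from -0.01 to 0.37 over all cells and from -0.17 to 0.24 within the larger Müller glia-like cluster.

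Cells that kept the regulators (1225 cells with at least 3) and cells that lost them (90 cells with 0) were compared on other genes, with no test, since the regulators chose the cells. Among 3558 genes, those most higher in keeping cells on all 4 chips included TRH, a hypothalamic releasing hormone (204 against 11.0 CPM), PTH2, LINC01833, DKK3, a secreted protein of Müller glia (831 against 97.7 CPM), ILDR2, FGD4, PRSS23 and LRP2. Those most lower were MGP (284 against 8214 CPM), COL3A1, TGFBI, COL1A1, DCN, BGN, C7, COL1A2, PCOLCE and THBS2, most of them matrix proteins. The 10 ECM markers summed to 12318 CPM in losing cells and 649 CPM in keeping cells at day 60, 45783 and 2356 CPM at day 90, 6770 and 616 CPM on chip a, and 53987 and 2455 CPM on chip b. The RGC markers were higher in losing cells on every chip, at 719 against 501 CPM on chip a and 2866 against 508 CPM on chip b. Cluster 8 markers were higher in them on every chip but chip a, where both were at 649 CPM. On chip a the 10 cone markers (7737 against 3174 CPM), rod markers (3215 against 1203 CPM) and RPE markers (1395 against 536 CPM) were also higher in losing cells. Cone and rod markers were lower in losing cells on the other chips, and Müller glia markers on every chip. The part of cell group in these differences was not tested.

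Genes with the most similar pattern were ranked by Pearson's r of log2(CPM + 1) over 30 profiles, among 14173 genes. Each profile was a cell class on a chip with at least 15 cells. In these classes the larger and smaller Müller glia-like clusters were joined, and the VSX1-led cells were joined with the rod-like cells. Profiles of a chip share its library, so r is given with no p. For RAX the first 5 were BAZ2B (0.82), FZD3, a Wnt receptor (0.79), SIX3 (0.77), SHROOM3 (0.77) and CUTC (0.76). For SIX3 they included REPS1 (0.83), MGARP (0.80), LINC01833 (0.79) and LRP2 (0.79). LINC01833 is a non-coding RNA at chr2:44921077-44939199 on the minus strand, 2502 bases from SIX3. For SIX6 they were ADARB1 (0.78), NRCAM (0.74), STK35 (0.72), CRB1, a polarity protein of the retina (0.71), and UBE2W (0.67), and RAX came next with 0.66. For PAX6 they were NECAB2 (0.82), SLITRK5 (0.77), KCTD16 (0.76), MAB21L1, an eye development gene (0.76), and GOLM1 (0.75). For LHX2 they were ZHX2 (0.81), DSC2 (0.81), DSG2 (0.80), CASP6 (0.79) and PRSS23 (0.79). SIX6 and LHX2 had an r of 0.10 with each other. These names depend on the measure of likeness, since between 1 and 3 of each 5 were also among the first 5 by Spearman's rho.

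Among 12 progenitor genes that act with these regulators, 1 was called higher at day 200 in all cells, LHX9 (9.23 CPM at day 60, 29.6 then 27 on chips a and b), and 1 lower, FGF19 (28.1, 0 and 2.41 CPM). Their median log2 change was 0.13. HES1, a Notch target (1530 CPM at day 60, 1357 then 1729 on chips a and b), SFRP2, DACH1 and SOX2 (166, 165 and 198 CPM) were the highest and were not called. Of 7 counted relatives of SIX3 and SIX6 and of their EYA partners, 1 was high enough to be tested, EYA2, and it was not called, at a log2 change of 0.41. Of the PAX relatives 2 of 5 were tested and 0 called, with a median of -0.12. Of the LHX relatives 1 of 5 was tested, LHX4, and called higher (8.34, 59.8 and 64.2 CPM, log2 2.75).

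Of 13 optic vesicle patterning genes 7 were tested and 1 was called higher, OTX2, which marks photoreceptor precursors and pigment epithelium (100.2 CPM at day 60, 403 then 280.3 on chips a and b), with a list median of 0.36. Of 9 photoreceptor regulators 7 were tested and 5 called higher, RAX2, OTX2, NRL, NR2E3 and RXRG, with a list median of 2.02. RAX2, the photoreceptor relative of RAX, had 0 reads at day 60 and was at 32.9 then 14.2 CPM on chips a and b, at least 837-fold higher over day 200 against the 3 reads over the day 60 chip that a count of 0 allows. The list median is the same with RAX2 at that bound.

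Of 10 horizontal and amacrine cell genes 5 were tested and 3 called higher, TFAP2A (2.68, 38.4 and 22.7 CPM), PROX1 (21.2, 45.2 and 67.3 CPM) and GAD1 (12.9, 51.5 and 31.2 CPM), with a list median of 1.36. Of 7 counted retinal ganglion cell genes, 3 were tested, with RBPMS called higher (15.1, 35.9 and 38 CPM) and ATOH7 (27.2, 1.11 and 0 CPM) and IRX2 (58, 11.6 and 23.8 CPM) lower, and a list median of -1.68. Of 33 hindbrain and spinal cord genes 12 were tested and 8 called lower, among them HOXA3, HOXA5, HOXB3, HOXB4, HOXB5, HOXB8 and HOXB9, with a list median of -2.16. HOXB5 was at 249 CPM at day 60, 39.1 then 63.9 CPM on chips a and b. The background for all these lists is the 6.82% of genes called higher and 3.23% called lower, and the median of 0.07.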

How the data were processed

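The authors deposited 1 table of raw read counts per gene and cell, made from SMART-Seq v4 cDNA, Nextera XT libraries and paired 75-base reads with Trimmomatic 0.33, STAR 2.4.0 and HTSeq 0.6 on GRCh38.p7, filtered for cell quality by the authors. By the study's account the handling differed between days. The day 60 cells had a lower cutoff for reads. Day 90 was run first, with more spike-in RNA and a looser spike-in filter. The part of this in differences between days was not tested. The strand setting is not given in the sources used here, and reads carried no molecular identifiers, so a read is not a molecule. Of the rows, 24414 genes were kept and the GFP spike-in row was left out of totals. The members, gene lists and fold rules were chosen with earlier results of these data known, and the cell type markers were chosen by the study on these cells. Samples (79 chip columns) were grouped by day and chip from their titles. Reads of a gene were summed over cells and divided by the summed reads. Folds used CPM + 1 and genes with at least 20 CPM in either group. Shares used 1 read in cells thinned to 50000 reads, which left out 6 cells of day 90. Clustering used Seurat 5.3.0 (log-normalization to 10000, 1000 variable genes a day without the members, canonical correlation integration, 20 dimensions, resolution 0.6). Clusters took a name from at least 3 markers at 2-fold, after adding 5 CPM, with reads in 20% of cells. Scanpy 1.11.5 called 25 doublets, which were kept. Keeping and losing cells were compared on CPM + 10 among genes of at least 50 CPM. Named genes were the 5 members, the 4 highest and the called genes of each list, the 5 most alike by Pearson's r, and the 10 at each end of the keeping and losing comparison, a few of which are not reported here. Counts were also simulated with changes larger than the fold rule and with counting error alone, without differences between chips. In them 200 of 200 changed genes were recovered with 0 false calls among 24414 genes (day 200 against day 60). That checks the code of the rule and gives no false-call rate for the real data. Alternatives were other thinning, thresholds, cell filters, clusterings and TMM scaling (edgeR 4.0.16).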

Additional observations from a re-analysis of the deposited data

Results flagged for a closer look

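Changes from day 60 to day 200 that ran in opposite directions in different clusters, with the same sign on both day 200 chips, drew attention for SIX3, PAX6 and LHX2. The values are log2 ratios of pooled CPM, and the difference between clusters was not tested. SIX3 was higher at day 200 in RGC-like cells (1.23), the unnamed cells (1.16), smaller Müller glia-like cells (0.64) and larger Müller glia-like cells (0.14), and lower in cone-like cells (-0.75) and VSX1-led cells (-0.16). PAX6 was higher in smaller Müller glia-like cells (1.26) and RGC-like cells (1.24), and lower in cone-like cells (-1.04) and VSX1-led cells (-0.44). LHX2 was higher in VSX1-led cells (1.26), the unnamed cells (0.99) and smaller Müller glia-like cells (0.63), and lower in cone-like cells (-2.15) and RGC-like cells (-2.00). Of these 15 values, 4 also passed the call rule in the report, SIX3 in the unnamed cells, PAX6 in RGC-like cells and LHX2 in RGC-like and cone-like cells. LHX2 in RGC-like cells rests on 36 and 29 reads at day 200, and its 1-read share there was at that of ECM-like cells. In the smaller Müller glia-like cluster the day 60 level rests on 16 cells and that of chip a on 10. The share of HOX-positive cells in the RGC-like cluster fell from day 60 to day 200. Its part in the changes of SIX3, PAX6 and LHX2 there was not tested.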

How the results depend on the processing

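Alternatives were run for levels and shares by day, cone-like, RGC-like and ECM-like over Müller glia-like cells, changes over time in Müller glia-like cells, HOX classes, pairs, likeness and the genes of keeping and losing cells, and no called value among these changed its sign. None was run for changes over time in cone-like, RGC-like, VSX1-led and unnamed cells, the other clusters or the gene lists. All 40 values for levels by day and all 49 for shares and numbers of regulators moved by less than 1 SD over day 200 columns. An SD over single columns is wide beside these changes, so staying within it does not show that a value is stable. Without chip a, the log2 change of RAX went from 0.48 to 0.13 and that of SIX6 from 0.44 to 0.01. For levels by cell group, 149 of 150 moved by less than 1 SD over chips. For changes over time in Müller glia-like cells, 49 of 50 moved by less than 1 SD over day 200 columns with at least 3 such cells. That SD is likewise over single columns. With cells of at least 150000 reads and at most 10% mitochondrial reads, SIX3 in RGC-like over Müller glia-like cells was -0.31 on the log2 scale. With no integration, RAX in Müller glia-like cells at day 200 over day 60 was -2.15, resting on 3 day 60 cells. With no thinning, the day 60 difference of HOX-positive minus HOX-free cells was -9.86 percentage points for RAX, -19.2 for SIX6 and -13.2 for LHX2. The HOX classes were then also set from all reads. With at least 5 reads asked for, the mean ratio of cells with both regulators to the number from their shares was 1.19 for RAX with SIX3, 1.40 for RAX with SIX6, 1.14 for RAX with PAX6, 1.28 for RAX with LHX2, 1.12 for SIX3 with SIX6, 1.15 for SIX3 with PAX6 (1.04 with no thinning), 1.26 for SIX3 with LHX2 and 1.22 for PAX6 with LHX2. Of the 5 genes most like each regulator, Spearman's rho kept 1 for RAX, 2 for SIX3, 2 for SIX6, 3 for PAX6 and 1 for LHX2, and leaving out ECM-like and RPE-like profiles kept 2, 2, 2, 0 and 1. The cause was not tested. Some uncalled values changed sign, and not all of them were near 0. RAX in cone-like over Müller glia-like cells became 0.17 when cells took the nearest marker list. PAX6 in RGC-like over Müller glia-like cells became 0.16 with chip a left out, and 0.08 when chip b was dropped instead. The SIX3 share, day 200 minus day 60, went from -6.32 to 1.74 percentage points once chip a was dropped. For the RAX share, unthinned counts gave 0.56 points in place of -4.67. Dropping chip a also took the log2 change of RAX in Müller glia-like cells, day 200 over day 60, from 0.28 to -0.38.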
